A study of Polypedilum vanderplanki with 72 samples.

Results

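The V5-6 line is a line of Pv11 cells that lost heat shock factor 1 (HSF1) by gene knockout and expresses the HSF1 isoform V5-6. It was compared with knockout cells that express no HSF1 form (KO). Pv11 is a cultured cell line of Polypedilum vanderplanki, the sleeping chironomid, whose larvae withstand drying out. A first comparison was made with cells kept for 48 h in trehalose at 600 mM (T48), the other with cells heat-shocked for 6 h (HS6h). Each group has 3 libraries, so 12 of the 72 libraries of the series enter, chosen by their labels alone. Both the V5-6 line and KO carry the HSF1 knockout, and the labels give the isoform as overexpressed and the derived cells as clonal lines. Every HSF1 form is present as 1 line, so a form and its clone cannot be told apart. The titles at T48 add the letters KI to V5-6, which the labels do not spell out and which the titles at HS6h lack.

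For reference, the text also uses wild-type cells (WT), the lines with the isoforms V4 and V2 in the same knockout background, and V5-6 and WT cells 24 h after rehydration (R24). Some levels are also given for knockout cells with the isoform V1 or V3, with Drosophila HSF1a (Dma) or with Drosophila HSF1b (Dmb), and at R24 for V1, V2, V3 and V4. Cells of the last kind had been in trehalose for 48 h and then dry for 11 days. The series has no KO cells at R24 and no untreated cells, so V5-6 could not be compared with KO after rehydration. Whether the heat-shocked cells also had trehalose is not in the labels, nor whether libraries of a group came from separate cultures. P-values therefore measure the spread between these libraries, which may be technical.

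HSF1 is the transcription factor that animal cells use to answer protein-damaging stress: it trimerises, binds heat shock elements in promoters and raises genes for chaperones. Alternative splicing gives HSF1 proteins that differ in parts of the sequence, and isoforms of HSF1 from other animals differ in how strongly they activate transcription. In the sleeping chironomid, HSF-type motifs have been linked to genes induced by drying, and trehalose, which the larvae accumulate, is given to Pv11 cells so that they survive drying.

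The 12 libraries held 3665051 to 6416185 gene counts each. Reads without a feature were 39.0 to 43.3% of the sum of such reads and the gene counts. That sum leaves out all other reads, so it is not a share of all reads. The 10 most abundant genes took 17.1 to 17.9% of counts at T48 and 12.2 to 14.3% at HS6h. Over the 12 pairs of libraries of a group, the variance was 2.21 to 3.40 times that of counting error, and no library stood apart. The table lists 17156 genes by ID only. None of the IDs matched the 17863 loci of the reference table, so genes are given by ID, no role can be stated for them, and HSF1 itself could not be read as a check of the labels.

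The first question is how the V5-6 line differed from KO in cells held in trehalose and in cells under heat. At T48, 2641 of 8255 genes tested (32%) differed between V5-6 and KO at an adjusted p under 0.05 of edgeR's quasi-likelihood test, 1292 higher (15.7% of genes) and 1349 lower (16.3%) in V5-6. After heat shock, 1790 of 8264 genes (21.7%) differed, 946 higher (11.4%) and 844 lower (10.2%). At HS6h the direction that outnumbered the other turned with the scaling of the libraries: with RLE size factors 874 genes were higher and 915 lower. Most of these differences were small. The median size of a called difference was 0.58 on the log2 scale at T48 and 0.56 at HS6h. Differences of 2-fold or more leaned toward genes higher in V5-6, with 353 higher (4.28% of genes) and 245 lower (2.97%) at T48 and with 192 higher (2.32%) and 151 lower (1.83%) at HS6h. The libraries of V5-6 and KO did not overlap in 42.5% of genes at T48 and 36.1% at HS6h. At 8-fold or more, 66 genes were higher and 21 lower at T48, and 43 were higher and 13 lower at HS6h. Folds of genes with 0 counts in a group are fitted values in these counts.

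Calls followed abundance. Of 4 equal bins by mean level, the lowest had 12.4% of its genes called at T48 and 7.74% at HS6h, against 63.3% and 41.8% in the highest. The called genes of the lowest bin differed by a median of 1.86 (T48) and 1.88 (HS6h) on the log2 scale and those of the highest by 0.43 and 0.39. The differences called in low genes were thus larger than those called in abundant ones.

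**Figure D1:**
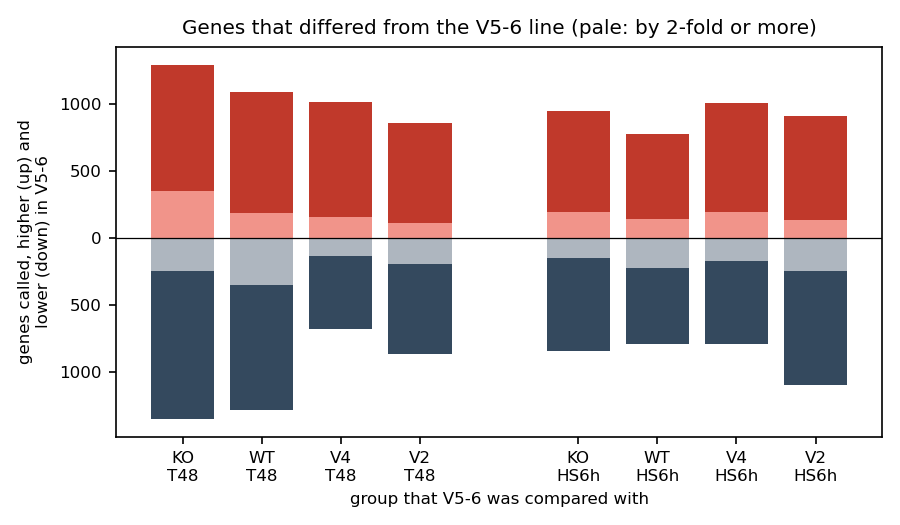
Number of genes called in V5-6 against KO, WT, V4 and V2 at T48 and HS6h (adjusted p under 0.05), with genes higher in V5-6 drawn up and lower drawn down. The pale part of each bar is the genes that differed by 2-fold or more. V5-6 differed from KO in 2641 genes at T48 and in 1790 at HS6h.

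Among called genes with non-overlapping libraries and a mean of at least 5 CPM, g6912 had the largest fitted rise over KO in both treatments. Levels are CPM, gene counts per library scaled to a common total by TMM factors over all 72 libraries. In trehalose the V5-6 libraries had 65.3, 61.4 and 54.5 CPM of g6912, and the KO libraries had 0.466, 0.525 and 0.188. The means were 60.4 ± 5.46 and 0.393 ± 0.180 CPM (SD, n = 3), a log2 difference of 7.23 (SE 0.26, adjusted p = 1.58e-51). KO cells thus had almost none of this transcript, and all 3 V5-6 libraries were far above them.

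After heat shock g6912 stood at 34.9, 35.6 and 37.1 CPM in V5-6, while KO held 1 count of it in 3 libraries. The ratio was 489, with an exact Poisson 95% interval of 87.3 to 19342, which like all such intervals and floors here covers counting error only. WT cells had 97.5 ± 5.48 CPM at T48 and 32.4 ± 3.19 at HS6h. V5-6 therefore reached 62.0% of the WT level in trehalose, a difference of -0.70 on the log2 scale (SE 0.10, adjusted p = 5.47e-09). Under heat it stood at 111% of WT, and that difference of 0.13 (SE 0.13) did not pass the test (adjusted p = 0.537). The V4 line had 5.29 ± 2.57 CPM of g6912 in trehalose and 0.536 ± 0.0753 under heat, below V5-6 by 3.53 and 5.96 on the log2 scale. The V2 line, at 263 ± 9.79 and 79.8 ± 6.06 CPM, lay above V5-6 in both treatments. At R24 V5-6 had 52.0 ± 8.68 CPM and WT 101 ± 9.31.

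Another transcript almost missing from KO was g4436. In trehalose KO held 1 count of g4436, all in replicate 1, and the V5-6 libraries had 14.8, 16.6 and 13.2 CPM. The ratio was 201 (exact Poisson 95% interval 35.6 to 7961). Under heat the V5-6 libraries had 32.3, 38.3 and 34.6 CPM against 0.768, 1.59 and 1.68 in KO. On the log2 scale that was a difference of 4.64 (SE 0.25, adjusted p = 1.5e-30). Here V5-6 exceeded WT: it was 200% of the WT level of 7.45 ± 1.83 CPM at T48 and 181% of 19.4 ± 2.99 at HS6h. The direct differences from WT were 0.99 (SE 0.24, adjusted p = 0.000403) and 0.85 (SE 0.15, adjusted p = 4.02e-06).

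The neighbouring IDs g5213 and g5214 were higher in V5-6 than in KO in both treatments, and also higher than in WT. For g5213 the V5-6 libraries had 19.5, 13.6 and 13.9 CPM in trehalose, while KO replicate 2 held 1.58 CPM and the other two KO libraries 0. Its log2 difference of 5.03 (SE 0.40) became 9.06 without that library. Under heat V5-6 had 18.7 ± 3.28 CPM of g5213 against 1 count in KO, a ratio of 254 (exact Poisson 95% interval 45.1 to 10053). V5-6 stood at 654% of WT in trehalose and 486% under heat, yet below the V2 line, which had 127 ± 6.57 and 171 ± 9.60 CPM. For g5214 under heat V5-6 had 6.93, 8.11 and 9.78 CPM against 0 in all KO libraries, at least 37.7-fold higher (a group of 0 is set to 3 counts in all). In trehalose the means of g5214 were 4.34 ± 0.645 and 0.275 ± 0.282 CPM (log2 3.74, SE 0.60, adjusted p = 1e-07). Reads of similar or overlapping neighbouring genes may be shared between such IDs.

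Among the falls, V5-6 lay near WT in some genes and below WT in others. The transcript g5878 had 7.46, 3.68 and 5.44 CPM in KO in trehalose and 0 in all V5-6 libraries, at least 23.9-fold lower, and WT had 3 counts of it. Under heat g5878 had 1.15 ± 0.563 CPM in KO and 2 counts in V5-6, and the difference did not pass the test (adjusted p = 0.0712). The transcript g2642 fell in both treatments. In trehalose it had 1.73, 3.23 and 0.928 CPM in V5-6 against 18.2, 20.0 and 19.3 in KO (log2 -3.25, SE 0.42, adjusted p = 5.38e-11). Under heat V5-6 held 1 count against 6.29 ± 1.67 CPM in KO, a ratio of 83.5 (exact Poisson 95% interval 14.6 to 3336). V5-6 was also below WT for g2642 by direct test (adjusted p = 0.0044 in trehalose and 0.00032 under heat), at 32.9% of its level in trehalose and 3.03% under heat.

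A different order was seen for g5365, which was lower in V5-6 than in KO and WT. In trehalose KO had 4.90, 6.04 and 8.82 CPM of g5365 and WT 6.54 ± 1.30, while V5-6 had 0.990 CPM in replicate 1 and 0 in the other libraries. The log2 difference from KO was -4.30 (SE 0.71, adjusted p = 1.87e-07) and -7.83 without replicate 1. Under heat g5365 stood at 4.55, 1.87 and 6.02 CPM in V5-6, 45.9, 37.5 and 38.3 in KO and 24.7 ± 2.02 in WT. V5-6 was lower than KO (log2 -3.30, SE 0.26, adjusted p = 1.04e-19) and lower than WT (log2 -2.61, SE 0.27, adjusted p = 4.21e-14). The V2 line was lower still, at 0 counts in trehalose and 1.02 ± 0.837 CPM under heat, where V5-6 exceeded it by 1.93 (SE 0.47, adjusted p = 0.000894). For g5569 under heat, V5-6 was again below both others, with 2 counts in V5-6, 10.2 ± 2.33 CPM in KO and 4.90 ± 1.79 in WT. Its ratio of KO to V5-6 was 68.3 (exact Poisson 95% interval 18.5 to 569).

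**Figure D2:**
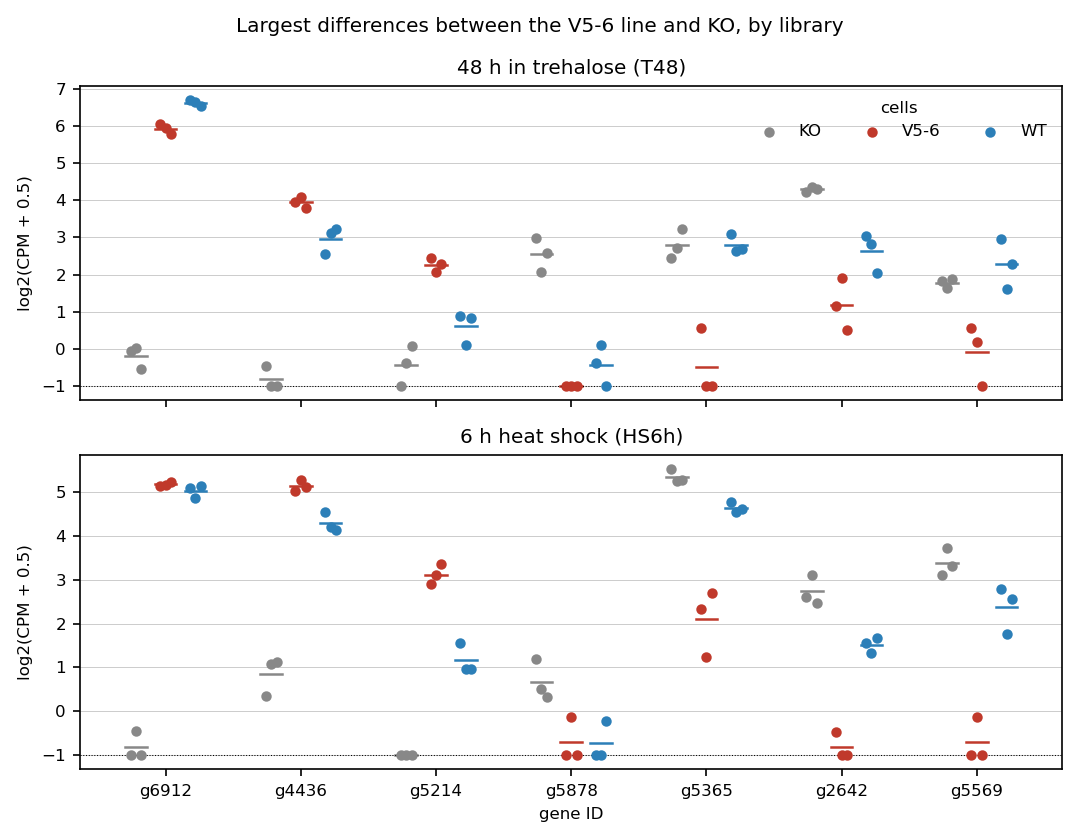
Level of the 7 genes named for their differences between V5-6 and KO, as log2(CPM + 0.5), in trehalose (top) and after heat shock (bottom). Each point is a library of KO, V5-6 or WT and each line a group mean, with -1 the value of 0 counts. For g6912 the V5-6 libraries lie near WT and far above KO, and for g5365 V5-6 lies below both.

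The next question is whether the V5-6 line differed from KO in the same genes in trehalose and under heat. The treatments share no library, though they share the 2 lines compared. Of 7826 genes tested in both, 318 were higher in V5-6 in both, which is 25.8% of those higher at T48 and 34.0% of those higher at HS6h. Lower in both were 324 genes, 24.2% of those lower at T48 and 39.4% of those lower at HS6h. Called in neither were 4441 genes. In opposite directions were 298 genes. Of these, 192 were lower in trehalose and higher under heat, 14.4% of those lower at T48. The reverse held for 106, 8.60% of those higher at T48. Of all 7826 genes, 11.9% were higher and 10.5% lower at HS6h, so opposite calls came near the shares of all genes. Across these genes the log2 differences of both treatments had a Pearson correlation of 0.446 and a Spearman correlation of 0.180, a description over genes, which are not independent replicates and come from the same 12 libraries.

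Large differences were carried over more often than small ones. The 300 genes at least 2-fold higher at T48 had a median of 0.52 (log2) at HS6h, where 39% were called higher and 1.33% lower, against 11.9% and 10.5% of all 7826 genes. The 233 genes at least 2-fold lower at T48 had a median of -0.44 at HS6h, with 9.44% higher and 41.6% lower. Read the other way, the 181 genes at least 2-fold higher at HS6h had a median of 1.04 at T48, with 59.7% higher and 3.31% lower, against 15.7% and 17.1% of all genes. The 131 genes lower at HS6h had -1.01 there, with 1.53% higher and 55.0% lower.

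**Figure D3:**
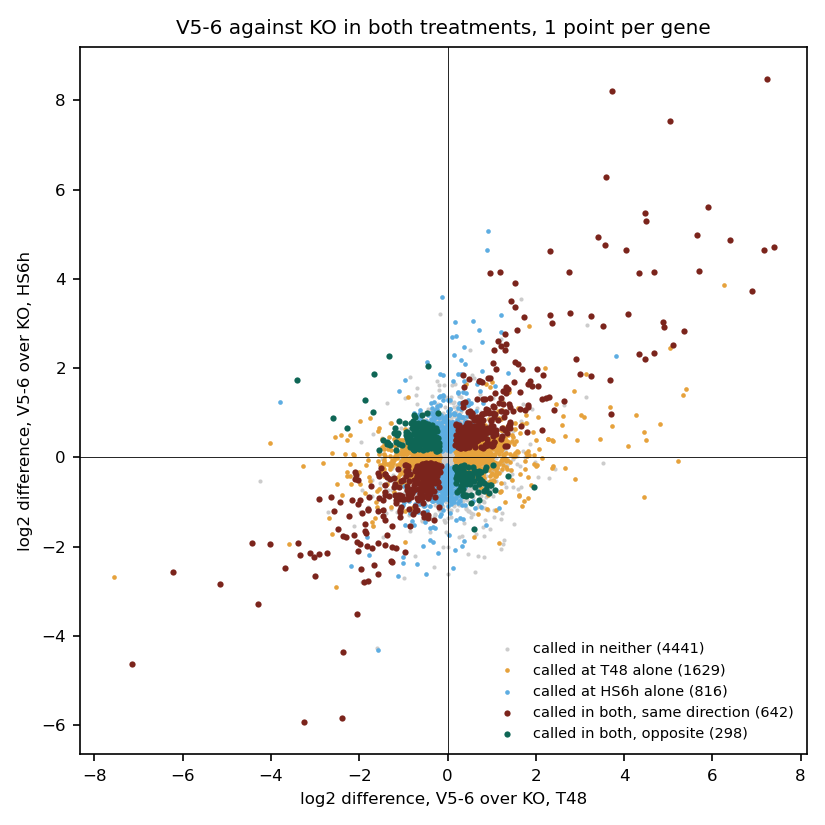
Log2 difference of V5-6 over KO at T48 (x axis) against that at HS6h (y axis) for 7826 genes tested in both, coloured by where they were called. Genes called in the same direction number 642 and in opposite directions 298.

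The difference between the treatments was tested itself over all 72 libraries. It was the V5-6 effect, meaning the log2 difference of the V5-6 line from KO, at HS6h minus that at T48. Of 9231 genes, 1770 (19.2%) passed, 960 (10.4%) with a higher and 810 (8.77%) with a lower effect under heat. With RLE size factors the split was 871 and 885. All 298 genes with opposite calls were among the genes that passed, which their choice from the same libraries made nearly certain. Of 1629 genes called at T48 alone, 819 also had a called difference between treatments, and of 816 called at HS6h alone, 335 had one. For the remainder, a call in 1 treatment alone is not shown to be a difference between treatments.

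Opposite effects were seen in g2323, which is well covered. In trehalose V5-6 had 25.0, 31.9 and 33.9 CPM of g2323, below KO at 96.5, 109.2 and 124 and far below WT at 318 ± 29.1. Under heat V5-6 had 102.7, 104.7 and 136 CPM, above KO at 47.6, 47.7 and 45.6 and not detectably different from WT at 127 ± 4.03 (adjusted p = 0.295). The V5-6 effect was -1.86 (SE 0.11) in trehalose and 1.30 (SE 0.11) under heat, and their difference was 3.14 (SE 0.19, adjusted p = 1.59e-21). The V2 line had 19.6 ± 2.11 CPM in trehalose and 91.9 ± 9.36 under heat, and V4 had 126.9 ± 6.60 and 70.8 ± 10.1. The transcript g8245 also turned, with 1.25 ± 0.659 CPM in V5-6 against 7.64 ± 1.78 in KO in trehalose and 46.3 ± 8.78 against 25.2 ± 3.59 under heat. Its effects were -2.60 (SE 0.55) and 0.88 (SE 0.15), and their difference was 3.49 (SE 0.43, adjusted p = 6.62e-11).

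In the other direction, g8954 had 91.2 ± 2.72 CPM in V5-6 and 42.5 ± 7.99 in KO in trehalose, a log2 difference of 1.09 (SE 0.12). Under heat it had 11.8 ± 1.04 CPM against 19.9 ± 2.28 (log2 -0.73, SE 0.22, adjusted p = 0.0116). The fall under heat lost its call without V5-6 replicate 1 or KO replicate 1, with log2 differences between -0.81 and -0.64 over all 6 omissions. For g11531, 21.6 ± 2.24 CPM against 5.45 ± 1.32 in trehalose (log2 1.95, SE 0.25) and 12.1 ± 2.75 against 19.4 ± 2.43 under heat (log2 -0.66, SE 0.24, adjusted p = 0.0385), the call under heat was lost without V5-6 replicate 1 or 3 or KO replicate 1 or 3. The tests of the difference between treatments gave -1.82 (SE 0.26) for g8954 and -2.63 (SE 0.35) for g11531.

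The largest differences between treatments that the naming rule picked were in low transcripts. In V5-6 g4163 was below KO in trehalose, at 0.247, 0.862 and 0.232 CPM against 6.53, 3.94 and 5.06, and above KO under heat, at 3.65 ± 1.39 against 1.08 ± 0.549, where no V5-6 library overlapped with KO. The difference of effects was 5.17 (SE 0.88, adjusted p = 1.74e-06). For g14318 V5-6 had 4.70, 7.11 and 10.2 CPM in trehalose against 1.86, 2.36 and 2.63 in KO, and 0 against 1.14 ± 0.310 CPM under heat. For g275 V5-6 had 5.19 ± 3.42 CPM against 0.280 ± 0.247 in trehalose and 0 against 6 counts under heat, and for g7426 it had 0 against 8 counts in trehalose and 5.10 ± 0.815 against 3.24 ± 1.19 CPM under heat. A fitted difference against 0 counts depends on the prior count and sets no bound.

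How far the line lay from WT was asked with the genes that KO had lost or gained, taken in each case from the treatment not being read. These lists were known from earlier results, so their counts describe and do not test. KO differed from WT in 28.4% of genes at T48, 13.4% higher and 15% lower, and in 28.2% at HS6h, 13.2% higher and 15% lower. At T48, 411 genes (4.98%) were lower in KO by 2-fold or more, and 360 of them were tested at HS6h. There 30.3% of them were higher in V5-6 than in KO and 5.28% lower, against 11.4% and 10.2% of all genes, and their median was 0.35 on the log2 scale against 0.00 over all genes. In WT against the same KO libraries 156 of the 360 genes were higher, with a median of 0.64. The V5-6 line lay lower than WT by direct test in 88 of them (24.4%) and higher in 32 (8.89%). Over all genes 9.56% were lower and 9.34% higher. The median of the list against WT was -0.21.

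The same list set V5-6 between the V4 and V2 lines. Against V4 it was higher in 107 and lower in 24 of the 360 genes, a median of 0.28, where 12.2% of all genes were higher and 9.55% lower. Against V2 it was higher in 33 and lower in 117, a median of -0.31, where 11% of all genes were higher and 13.3% lower. Counted by library as the median of log2(CPM + 0.5) over the KO mean, V5-6 stood at 0.317, 0.325 and 0.300. The V4 libraries lay between 0.00622 and 0.0366, those of V2 between 0.454 and 0.506 and those of WT between 0.569 and 0.626. The libraries of these lines did not overlap.

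At HS6h, 353 genes (4.27%) were lower in KO than in WT by 2-fold or more, and 299 of them were tested at T48. In V5-6 44.8% were higher than in KO and 8.36% lower, with a median of 0.50, against 15.7% and 16.3% of all genes and a median of 0.01. WT against the same KO libraries gave a median of 0.76 for these genes, V2 0.73 and V4 0.33. By direct test V5-6 was higher than V4 in 85 (28.4%) and lower in 30 (10.0%), where 12.2% and 8.18% of all genes were. It was higher than V2 in 27 (9.03%) and lower in 105 (35.1%), where 10.3% and 10.5% of all genes were. Against WT it was higher in 47 (15.7%) and lower in 87 (29.1%), where 13.2% and 15.6% of all genes were. The medians of the list were 0.17 against V4, -0.25 against V2 and -0.20 against WT. The order V4, V5-6, V2 and WT was thus the same as for the list read under heat, at a smaller distance from V4.

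Genes that KO had gained showed no such order. At T48, 162 genes (1.96%) were higher in KO by 2-fold or more. Of the 150 tested at HS6h, 34% were lower in V5-6 than in KO and 6.67% higher, with a median of -0.48, against 10.2% lower and 11.4% higher over all genes. For WT against the same KO libraries the median was -1.01. V4, at -0.48, and V2, at -0.30, lay near V5-6. Direct tests found 25 genes higher (16.7%) and 20 lower (13.3%) in V5-6 than in V4, against 12.2% and 9.55% of all genes. Than in V2, 21 were higher (14.0%) and 26 lower (17.3%), against 11.0% and 13.3% of all genes. These shares were not far from those of all genes. Against WT, V5-6 was higher in 61 of the 150 genes (40.7%) and lower in 8 (5.33%), where 9.34% and 9.56% of all genes were. Of 211 genes (2.55%) higher in KO at HS6h, 180 were tested at T48, where 43.3% were lower in V5-6 and 7.78% higher, against 16.3% and 15.7% of all genes, a median of -0.45, with -0.79 in WT, -0.37 in V4 and -0.42 in V2.

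**Figure D4:**
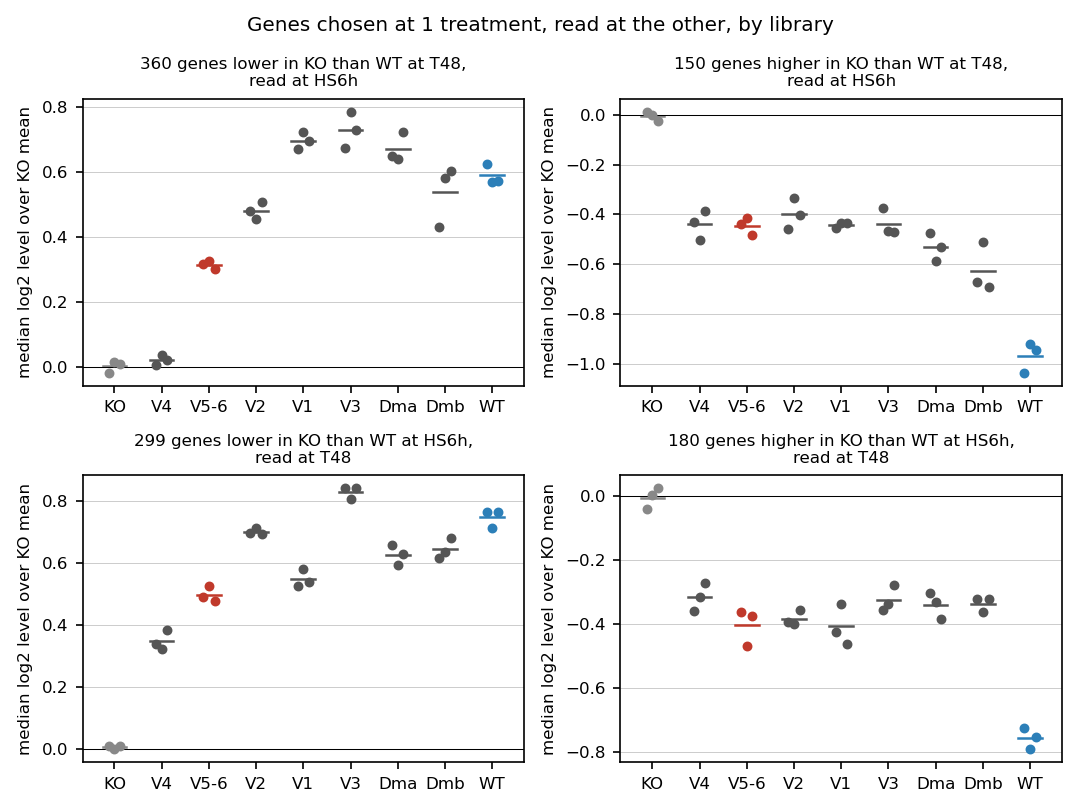
Median over the genes of a list of log2(CPM + 0.5) minus the KO mean, for each library of 9 genotypes. Lists were made at a treatment and are read at the other: genes lower in KO (left) and higher in KO (right). V5-6 at 0.300 to 0.325 lies between V4 and V2 for the 360 genes read at HS6h.

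Heat-high genes, at least 4-fold higher in WT at HS6h than at T48, were called in V5-6 against KO at about the rate of all genes. Without untreated cells, a rise with heat cannot be told apart from a fall in trehalose. Of 312 such genes 293 were tested at HS6h. There 11.9% were higher in V5-6 than in KO and 8.53% lower, near the 11.4% and 10.2% of all genes. Their median was -0.03. V2 against the same KO libraries had 24.6% higher and 14.3% lower, against 14.8% and 12.8% of all genes. V4 had 7.17% higher and 18.4% lower, where 18.2% and 18.2% of all genes were. WT against KO had 29.0% higher and 13.7% lower, against 15% and 13.2% of all genes. V5-6 against WT had 10.2% higher and 23.9% lower, against 9.34% and 9.56% of all genes. The list was made with these WT libraries, which favours high values in WT. By library at HS6h, the median log2(CPM + 0.5) of the list over the KO mean averaged -0.0078 in V5-6. It was -0.012 in V3, -0.017 in Dma and 0.017 in Dmb, so a value near 0 was not particular to V5-6. It was -0.15 in V4, 0.10 in V2 and WT and 0.39 in V1. At T48, 132 of the heat-high genes were tested, with 15.9% higher and 15.2% lower in V5-6 than in KO, against 15.7% and 16.3% of all genes. Each line had a broad difference between the treatments: from T48 to HS6h, 5669 of 9231 genes (61.4%) differed in V5-6 and 5392 (58.4%) in KO. In V5-6 g4171 went from 89.1, 112 and 101.4 CPM in trehalose to 0 under heat, at least 451-fold lower, and in KO from 23.3 ± 4.20 CPM to 0. In trehalose g4171 was higher in V5-6 than in KO by 2.10 on the log2 scale (SE 0.14) and than in WT by 1.47 (SE 0.14). Higher under heat than in trehalose in V5-6 was g1761, which went from 0 to 6.50, 9.78 and 11.3 CPM, at least 39.8-fold higher. Under heat KO had 6.73 ± 2.89 CPM of g1761 and WT 14.8 ± 1.28.

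Genes that WT held at least 4-fold higher at T48 than at both HS6h and R24 were more often called higher in V5-6 in trehalose than all genes were. Of 94 such genes 86 were tested at T48, and 36.0% were higher in V5-6 than in KO and 17.4% lower, with a median of 0.20, against 15.7% and 16.3% of all genes. V4 against the same KO libraries had 29.1% higher and 17.4% lower, where 13.0% and 16.9% of all genes were. V2 had 47.7% higher and 22.1% lower, where 18.8% and 19.8% of all genes were. The lean toward higher calls was thus not particular to V5-6. At HS6h 48 were tested, 6 higher and 6 lower in V5-6 than in KO (12.5% each), against 11.4% and 10.2% of all genes. Of 137 genes at least 4-fold higher in WT at R24 than at both other treatments, 60 were tested at T48. There 13.3% were higher in V5-6 than in KO and 6.67% lower, against 15.7% and 16.3% of all genes. At HS6h 60 were tested, with 11.7% higher and 13.3% lower, where 11.4% and 10.2% of all genes were.

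Genes that differed between V5-6 and WT after rehydration were read in V5-6 against KO, and against WT, at T48 and HS6h. Of 9231 genes 1532 (16.6%) differed between V5-6 and WT at R24, 6.52% higher and 10.1% lower in V5-6. The 144 genes (1.56%) at least 2-fold higher in V5-6 at R24 included 109 tested in trehalose, of which 42.2% were higher in V5-6 than in KO and 9.17% lower (median 0.66), against 15.7% and 16.3% of all genes. At HS6h 117 were tested, with 32.5% higher and 9.40% lower (median 0.14), against 11.4% and 10.2% of all genes. The V2 line against the same KO libraries had 48.6% of these genes higher at T48 (median 0.68) and 46.2% at HS6h (median 0.71). Of all genes, V2 had 18.8% and 14.8% higher. In V5-6 against WT, 56.9% of the 109 were higher and 4.59% lower at T48, where 13.2% and 15.6% of all genes were. At HS6h 54.7% of the 117 were higher than in WT and 3.42% lower, where 9.34% and 9.56% of all genes were. The 213 genes (2.31%) at least 2-fold lower than WT at R24 leaned the other way: 18.2% of 170 were higher than in KO and 34.1% lower at T48 (median -0.32), and 17.5% of 166 were higher and 25.3% lower at HS6h (median -0.27). In V5-6 against WT, 7.06% of the 170 were higher and 56.5% lower at T48. At HS6h 2.41% of the 166 were higher than in WT and 49.4% lower. V4 against the same KO libraries had 15.9% higher and 30.6% lower at T48, and 15.7% and 30.1% at HS6h. For V2 it was 30.0% higher and 32.4% lower at T48, and 21.1% and 25.3% at HS6h. Of all genes, V4 had 16.9% and 18.2% lower at T48 and HS6h, and V2 19.8% and 12.8%.

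Called genes often lay in runs of consecutive IDs. Whether the numbering follows the genome is not stated in the sources used here, and the runs were chosen after their values were seen. Of genes at least 2-fold higher in V5-6 than in KO at T48 and with a neighbouring ID tested, 30.1% had a neighbour called alike, against 5.24% of all genes. At HS6h the shares were 29.4% and 2.87%. For genes at least 2-fold lower they were 33.3% and 3.84% at T48 and 22.8% and 2.39% at HS6h.

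The longest run under heat was g236 to g241, 6 genes that were all higher in V5-6 than in KO, by 3.20 to 5.48 on the log2 scale. For g236 and g241 KO held 1 count each and for g237 it held 0, so their folds are loose. The V5-6 means of g236 and g237 were also low, at 0.884 and 0.358 CPM, and g237 passed narrowly (adjusted p = 0.048). The length of the run depends on g236 and g237. Summed over the run, the V5-6 libraries had 210.1, 202 and 240.5 CPM and the KO libraries 11.8, 9.78 and 12.0. WT cells had 31291 ± 999.9 CPM, so V5-6, although well above KO, stood at 0.695% of WT. Most of the sum was g239, at 179 CPM in V5-6, 9.87 in KO and 21702 in WT. V4 had 11.9 ± 0.735 CPM of the run, overlapping with the KO libraries, and V2 had 32685 ± 647. Each of the 6 genes was lower in V5-6 than in WT by 5.04 to 8.12 on the log2 scale. In trehalose the 4 genes tested of the run were also higher than in KO, and the sum was 17.2 ± 4.20 CPM in V5-6, 0.125 ± 0.217 in KO and 49.4 ± 6.67 in WT. V5-6 thus stood at 34.9% of WT in trehalose, where WT itself had little of the run, and at R24 it had 11.8 ± 1.53 CPM against 91.3 ± 6.41 in WT.

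Lower still against WT under heat was g17055, with 3.47, 4.16 and 2.76 CPM in V5-6 and 1850.5, 1970 and 1750.4 in WT, a log2 difference of -9.05 (SE 0.26, adjusted p = 4.89e-16). KO had 2.98 ± 0.181 CPM, and V5-6 did not differ from it detectably (log2 0.23, SE 0.65, adjusted p = 0.853). V4 had 1.06 ± 0.486 CPM and V2 1443 ± 37.1.

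The longest run in trehalose was g17480 to g17488, 9 genes that were all higher in V5-6 than in KO, by 2.20 to 5.03 on the log2 scale. Summed, they had 530.2, 507 and 553 CPM in V5-6 and 25.6, 23.1 and 29.8 in KO. WT had 276 ± 27.4 CPM, so V5-6 stood at 192% of WT, and 7 of the 9 genes were higher in V5-6 than in WT by direct test. The V4 line had 83.9 ± 14.9 CPM and V2 2519 ± 42.6. Under heat the run was low in V5-6, at 8.84 ± 1.99 CPM against 3.44 ± 1.62 in KO and 15.1 ± 3.62 in WT, and 3 of its 9 genes were called higher. At R24 V5-6 had 126 ± 8.69 CPM, WT 112 ± 19.2 and V4 36.7 ± 4.24. Against WT, V5-6 was thus high for g17480 to g17488 in trehalose and low for g236 to g241 under heat.

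**Figure D5:**
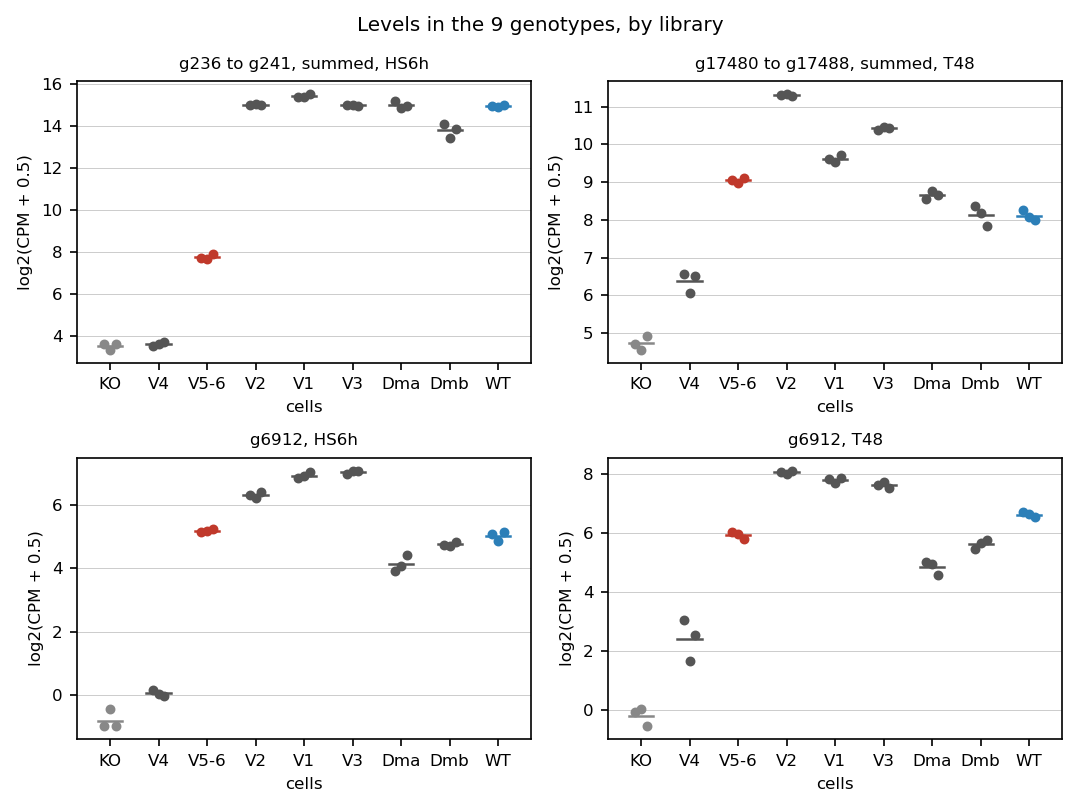
Summed level of g236 to g241 under heat and of g17480 to g17488 in trehalose, and levels of g6912 in both treatments, as log2(CPM + 0.5), for each library of 9 genotypes. V5-6 lies above KO in every panel, and for g236 to g241 its 202 to 240.5 CPM lie far below the 31291 CPM mean of WT.

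Over all genes V5-6 differed from WT in 2372 of 8255 genes (28.7%) in trehalose, 13.2% higher and 15.6% lower, and in 1562 of 8264 (18.9%) under heat, 9.34% higher and 9.56% lower. By 2-fold or more, 187 (2.27%) were higher and 348 (4.22%) lower in trehalose, and 142 (1.72%) were higher and 224 (2.71%) lower under heat. Some of the largest rises over WT were shared with KO. The transcript g11936 had 110.5, 102.6 and 85.0 CPM in V5-6 under heat, 100.7 ± 6.10 in KO and 0.247 ± 0.214 in WT. In trehalose it had 271 ± 7.79, 317 ± 7.59 and 1.97 ± 0.321 CPM, so V5-6 stayed close to KO in both treatments. The transcript g10534 had 0 counts in WT in trehalose, 5.29 ± 1.64 CPM in V5-6 and 7.82 ± 2.63 in KO. For g12707 under heat WT again had 0 counts, V5-6 9.37 ± 0.915 CPM and KO 8.05 ± 0.814. Another, g10530, was high in V5-6 alone of these 3: in trehalose it had 76.0, 80.4 and 69.2 CPM in V5-6, 0.650 ± 0.823 in KO and 2 counts in WT. Its level did not differ detectably between V5-6 and V4 (log2 -0.11, SE 0.12, adjusted p = 0.6).

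Of genes below WT in trehalose, g2495 had 0 counts in V5-6, 2.20 ± 2.21 CPM in KO and 9.16 ± 0.198 in WT, at least 39.6-fold lower than WT. For g13939 V5-6 held 1 count, KO 3.78 ± 0.529 CPM and WT 6.92 ± 1.17. Both were below KO as well (adjusted p = 0.00022 for g2495 and 3.14e-06 for g13939), and the KO libraries of g2495 spread from 0.375 to 4.66 CPM.

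Direct comparison found genes that differed between V5-6 and each of V4 and V2. Against V4, 1686 genes (20.4%) differed in trehalose, 1011 higher (12.2%) and 675 lower (8.18%) in V5-6, and 1794 (21.7%) under heat, 1005 higher and 789 lower. Against V2, 1721 genes (20.8%) differed in trehalose, 10.3% higher and 10.5% lower, and 2007 (24.3%) under heat, 11% higher and 13.3% lower. V5-6 and V2 both expressed g55, which KO, V4 and WT had at low levels: in trehalose V5-6 had 17.6, 17.5 and 14.2 CPM, V2 25.4 ± 5.98, V4 0.386 ± 0.346, KO 0.250 ± 0.433 and WT 1.07 ± 0.508. V5-6 exceeded V4 by 5.34 (SE 0.43), KO by 5.65 (SE 0.45) and WT by 3.88 (SE 0.37) on the log2 scale. Lower in V5-6 than in V4 under heat was g5879, at 0.650, 0.208 and 0 CPM against 14.2 ± 2.62. KO had 8.19 ± 2.91 CPM of it and WT 0.488 ± 0.209, so V5-6 was near WT (adjusted p = 0.689) and every V4 library was above those of KO.

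Under heat g12034 had the largest rise over V2 that the naming rule admits, at 25.1, 23.5 and 22.8 CPM against 1.88 ± 0.610 (log2 3.68, SE 0.27, adjusted p = 2.77e-21). V4, at 23.3 ± 1.75 CPM, and KO, at 15.5 ± 2.04, were on the side of V5-6, and WT had 3.56 ± 0.849. In trehalose g10389 had 7.42, 7.33 and 6.27 CPM in V5-6. Across the 8 other genotypes at T48 its means ran from 0.0875 CPM in KO to 0.709 in the line with Drosophila HSF1a. At R24 V5-6 had 5.30 ± 0.771 CPM of g10389 and the other 5 groups 0.0309 to 0.808. Under heat the V5-6 libraries spread from 0.251 to 3.54 CPM and overlapped with those of other lines.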

How the data were processed

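PolyA RNA was sequenced and counted by the authors, who deposited the table of counts as whole reads for each transcript, not normalized. Per the submitters' processing notes, FastQC 0.11.9, Trimmomatic 0.39, HISAT2 2.2.1 and HTSeq 2.0.9 were used. Genome build, annotation and strand setting are not given in the sources used here, so overlapping and antisense genes may share reads. Of 65235 transcripts, that with the highest total was kept for each of 17156 genes, and 5 special rows were left out.

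Counts were analysed with edgeR 4.0.16 (limma 3.58.1, R 4.3.3): filterByExpr, TMM, robust quasi-likelihood test, Benjamini-Hochberg adjusted p under 0.05. A fit held the 27 libraries of a treatment. Contrasts across treatments came from all 72. Named genes are, per comparison, the 2 largest rises and 2 largest falls among called genes whose libraries did not overlap with a group mean of at least 5 CPM. In their other comparisons they are given too. The comparisons, genes and lists were chosen with earlier results of these data known. Folds against 0 counts use a floor of 3 counts over the group, and groups with 1 to 3 counts get exact Poisson 95% intervals. Alternatives were RLE factors, DESeq2 1.42.0, no filter, other fits, summed transcripts, other list folds and each library left out.

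The steps were tested on simulated counts. In each run 200 genes were changed, up or down, and all other genes of V5-6 were drawn at the KO means. That is far fewer than were called in the data, so the shares need not carry over to them. For V5-6 against KO at T48 (8162 genes) 49.3%, 76.1% and 89.4% of genes changed 1.5-fold, 2-fold and 4-fold were recovered. Of these calls 8.33% were false, above the 0.05 of the threshold. At HS6h (8185 genes) the shares recovered were 38.8%, 62.7% and 92.4%, with 4.44% of calls false. For the difference between treatments (9150 genes) they were 10.4%, 44.8% and 72.7%, with 3.41% false.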

Additional observations from a re-analysis of the deposited data

Results flagged for a closer look

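The effect of V5-6 over KO differed between heat shock and trehalose in 1770 of 9231 genes, by edgeR's test of the difference between the treatments. The differences named by the rule, as the log2 effect at HS6h minus that at T48, were 5.44 for g7426, 5.17 for g4163, -8.36 for g275 and -7.36 for g14318. The V5-6 libraries lay on opposite sides of all KO libraries in the 2 treatments for g4163, whose 4 groups all held counts. The values for g7426, g275 and g14318 each rest on a V5-6 group with 0 counts and depend on the prior count.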

How the results depend on the processing

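All 261 recomputed counts of genes called, higher or lower stayed within 1.5 times the value reported, under every alternative run, and no called direction reversed. Called for V5-6 against KO were 2317 to 2722 genes at T48 and 1539 to 1984 at HS6h under the other settings, and 2274 to 2396 and 1401 to 1528 with each library left out in turn. Of 492 values of named genes 484 kept direction and call. The others were g11531 at HS6h, lost without a filter (adjusted p = 0.054), with summed transcripts (0.178) and in 4 omissions, and g8954 at HS6h, lost in 2. Of 336 list values 296 stayed the same by the rule used. Medians had to stay within the SD between V5-6 libraries, and shares of members within 1.5 times the value reported. The sign changed in medians near 0 alone: trehalose-high genes at HS6h (-0.00025, and 0.029 with lower list folds) and heat-high genes at HS6h (-0.033, and 0.0051 without KO replicate 3). Lists were also cut at 1.5-fold instead of 2-fold, or 2-fold instead of 4-fold. The medians at T48 were then 0.27 for genes lower in KO at HS6h and -0.22 for genes higher in KO at HS6h. They were -0.16 for genes below WT at R24 and -0.091 for heat-high genes, of which 10.2% were higher. At HS6h the medians were 0.23 for genes lower in KO at T48, -0.21 for genes higher in KO at T48 and -0.18 for R24-high genes. They were -0.10 and 0.076 for genes below and above WT at R24, and 13.4% of heat-high genes were lower. These lists hold more genes by construction. With RLE factors, genes lower in KO at T48 had 0.33 at HS6h. Leaving out each library gave, at T48, medians of 0.47 to 0.51 for genes lower in KO at HS6h and 0.16 to 0.31 for trehalose-high genes. It gave -0.41 to -0.28 and 0.49 to 0.73 for genes below and above WT at R24, and 9.09 to 12.1% of heat-high genes lower. At HS6h it gave 0.29 to 0.40 and -0.49 to -0.44 for genes lower and higher in KO at T48. For trehalose-high genes it gave -0.049 to 0.048 and for R24-high genes -0.34 to -0.18. Genes below and above WT at R24 had -0.30 to -0.20 and 0.15 to 0.24, and of the latter 5.98 to 9.40% were lower. Of heat-high genes 7.51 to 10.2% were higher. No paired analysis was possible because the labels number the libraries once through the series and give groups no shared replicate numbers.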
